A study of Homo sapiens with 11 samples.

Results

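The genes described here encode proteins that hold back, or act on, the cyclin-dependent kinases that drive the cell cycle. Of the 6 genes named for this family (CDKN1A, CDKN1B, CDKN1C, CDKN2C, CDKN2D and CDKN3), 5 were found as transcript clusters carrying that symbol alone in the array annotation. CDKN2C was not analysed here. A transcript cluster is a group of array probes read together for a transcribed locus, and each of the 5 genes had 1 such cluster, so no choice between clusters was needed. They belong to 22109 genes with a cluster of 1 symbol, of which 12147 reached a log2 level of 3.80 on at least 1 array and were tested, all 5 among them.

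The cells were MV4-11, an established human acute myeloid leukaemia line, and the study asked how transcription changed after knockdown of RUNX genes or after alkylating PIP conjugates. The RUNX genes RUNX1 to RUNX3 code for transcription factors known from blood and bone. Each of the 11 conditions had 1 array, so values are given per array and precision is set by how few arrays there are. The 8 knockdown arrays covered each way of combining 3 shRNAs, 1 per RUNX gene. They were shLuc (a luciferase shRNA and no RUNX shRNA), shRUNX1, shRUNX2, shRUNX3, shRUNX1+shRUNX2, shRUNX1+shRUNX3, shRUNX2+shRUNX3 and shRUNX1+shRUNX2+shRUNX3. All 8, shLuc included, came from transduced cells that had been kept for 24 hours in doxycycline at 3 µM. The 3 treatment arrays were DMSO, Chb-M' and Chb-50, each after 6 hours, with either compound at 1 µM, and no transduction or doxycycline is given for them. The labels state neither the promoter behind the shRNAs nor whether a clone was picked, and nothing in them says that arrays came from separate transductions or days. The spread behind the p-values is thus that between the arrays at hand, and it may be technical in origin. As no condition is repeated, it is what the fitted shRNA terms leave over. Combined effects of shRNAs that a fit leaves out are part of it, so it is not a spread between like arrays.

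CDKN1A (p21), CDKN1B (p27) and CDKN1C (p57) form the CIP/KIP family, whose proteins bind cyclin and kinase together and restrain mainly the CDK2 complexes of the G1 to S transition. CDKN2D (p19) belongs to the INK4 family with CDKN2C, and these bind CDK4 and CDK6 alone, which keeps them from D-type cyclins. CDKN3 carries the family's name but is a phosphatase that removes the activating phosphate from CDK2, and its transcript is known to be high in dividing cells. CDKN1A is a textbook target of p53, whereas CDKN1B is known to be controlled largely through protein breakdown, which arrays do not measure.

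The promoters of CDKN1A and CDKN3 are shown because these were the genes whose levels passed a test, CDKN1A after Chb-M' and CDKN3 with the RUNX1 and RUNX3 shRNAs together. Each is the 250 bases before a RefSeq start site on GRCh38.p14, on the plus strand of the chromosome, at chr6:36678464-36678713 for CDKN1A and chr14:54396757-54397006 for CDKN3. Capitals mark GC boxes (GGGCGG) in CDKN1A, and in CDKN3 CCAAT boxes and the CHR-type element TTTGAA, on either strand.
CDKN1A: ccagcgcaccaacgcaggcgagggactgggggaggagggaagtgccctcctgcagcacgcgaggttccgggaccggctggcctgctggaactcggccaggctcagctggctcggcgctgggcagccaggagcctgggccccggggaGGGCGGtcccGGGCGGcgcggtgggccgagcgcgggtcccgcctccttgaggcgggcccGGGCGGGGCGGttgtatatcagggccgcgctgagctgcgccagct
CDKN3: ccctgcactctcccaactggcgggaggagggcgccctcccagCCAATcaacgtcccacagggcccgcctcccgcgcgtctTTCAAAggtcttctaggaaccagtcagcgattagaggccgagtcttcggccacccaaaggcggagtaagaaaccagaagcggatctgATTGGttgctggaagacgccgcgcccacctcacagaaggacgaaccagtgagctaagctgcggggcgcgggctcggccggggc

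The CDKN1A window held 4 GC boxes, the last 2 sharing 1 base, and its GC content was 76.4%. A GC box was present in 42.6% of the 35116 promoter windows of this length in the RefSeq table. The CDKN3 window had a GC content of 64.4% and held CCAAT 2 times, a motif found in 32% of windows. It also held TTTGAA 1 time on the minus strand, from 170 to 165 bases before the start, which 13.3% of windows hold. Of the motifs searched in CDKN3, none overlapped another. The RUNX motifs TGTGGT and TGCGGT (16.3% of windows hold at least 1) and the E2F motif GCGGGAA (5.52%) were searched on both strands of the 4 members with a promoter entry. None of these 3 motifs was found in the windows of CDKN1A, CDKN1B, CDKN2D or CDKN3. Such matches describe the letters and are no evidence of binding or of its absence. By the RefSeq annotation CDKN1A lies at chr6:36676463-36687332, so the start shown is inside its annotated span. CDKN1B lies at chr12:12717368-12722369, CDKN1C at chr11:2883218-2885775, CDKN2D at chr19:10566460-10568979 and CDKN3 at chr14:54397007-54420218.

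As checks on the labels, RUNX2 read 5.56 to 5.82 on the 4 arrays with its shRNA and 6.00 to 6.30 on the 4 without, so these did not overlap. RUNX3 read 7.65 to 7.87 with its shRNA and 7.70 to 8.37 without. The 7.70 was the array labelled shRUNX1, which has no RUNX3 shRNA on its label. RUNX1 was listed only on a cluster shared with LOC100506403, which read 3.96 to 4.26 with the RUNX1 shRNA and 4.20 to 4.45 without. The 4.26 was the array labelled shRUNX1+shRUNX2. Of 11 myeloid markers, 10 had a cluster and 9 of these, among them FLT3, SPI1 and LYZ, reached the filter on every array, while CD14 stayed below it on all. The 5 T-cell markers stayed below it on all arrays. Of the other marker lists, only CD79A reached the filter on all arrays, and KLF1 and KRT18 did so on 2 and 3. The mean myeloid marker level lay between 6.92 and 7.15 on all 11 arrays. In samples such as these, fewer cells of a kind and less RNA per cell cannot be told apart.

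**Figure D1:**
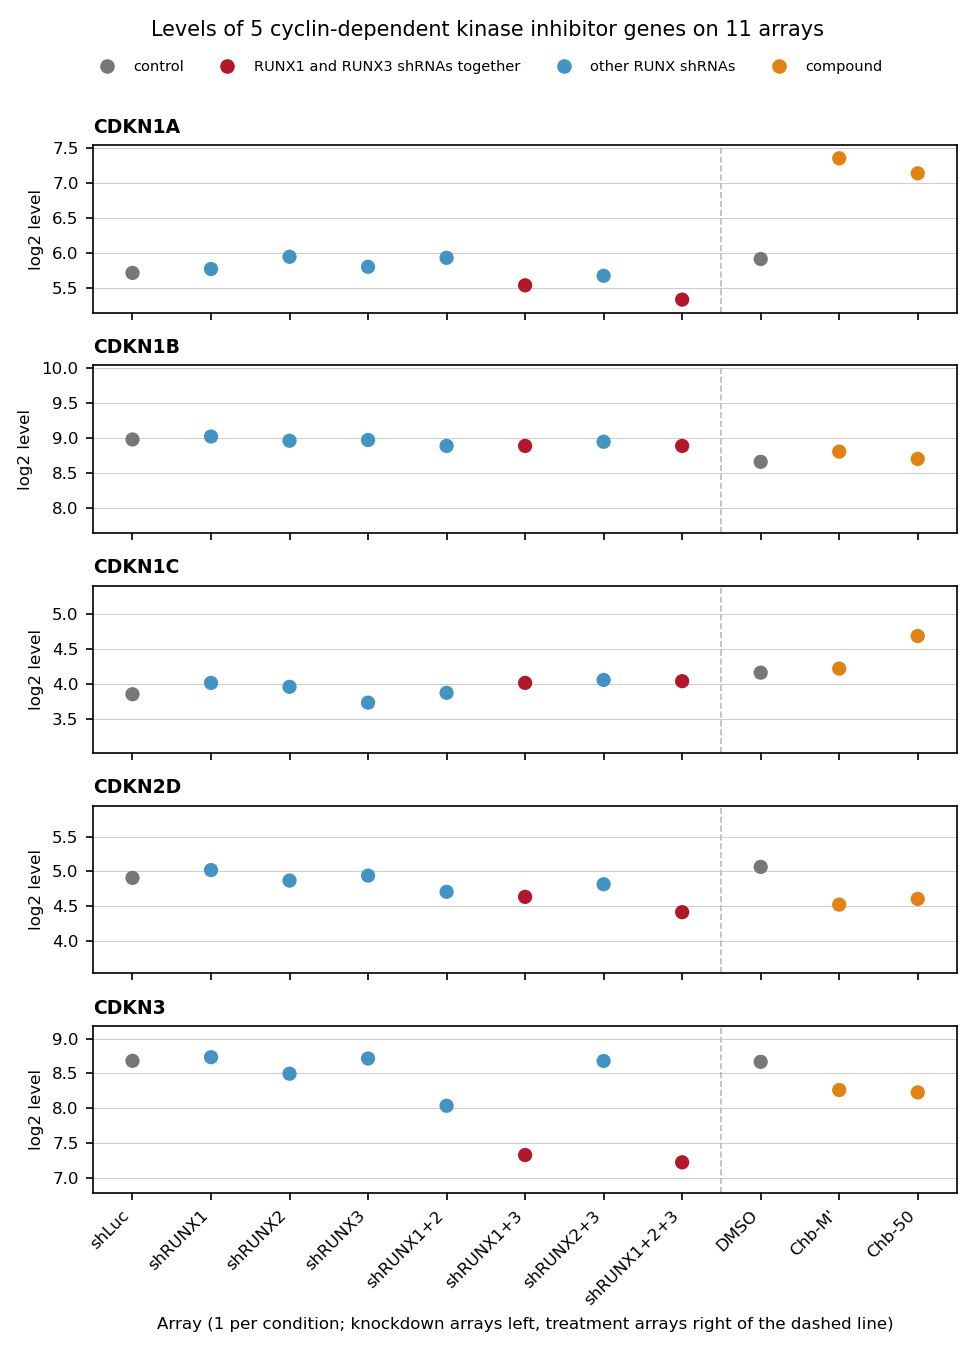
Level of each of the 5 genes (y axes, log2, each spanning the same number of log2 units) on each of the 11 arrays (x axis), with 1 point per array, controls in grey, arrays with RUNX1 and RUNX3 shRNAs together in red, other RUNX shRNAs in blue and compounds in orange. CDKN3 is lowest on the red arrays, at 7.33 and 7.23, and CDKN1A is highest on the compound arrays, at 7.36 and 7.14.

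The 5 genes differed in how much their own level moved. Over the 8 knockdown arrays CDKN3 spanned 1.51 log2 units, a span larger than that of 99.5% of the genes tested. CDKN1A spanned 0.61 (78.4th percentile), CDKN2D 0.60 (77.5th), CDKN1C 0.33 (37.1st) and CDKN1B 0.13 (3.66th), against a median span of 0.39 over all genes tested. Over all 11 arrays the span of CDKN1A was 2.03 log2 units (99.7th percentile), that of CDKN3 stayed at 1.51 (98.1st) and that of CDKN1C was 0.95 (87.1st). CDKN1B was therefore among the steadiest transcripts of the knockdown arrays, and CDKN3 among the least steady.

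CDKN3, the phosphatase of CDK2, fell on the arrays that carried the RUNX1 and RUNX3 shRNAs together. Its log2 level was 8.68 on shLuc, 8.73 on shRUNX1, 8.50 on shRUNX2 and 8.71 on shRUNX3. It was 8.04 on shRUNX1+shRUNX2, 7.33 on shRUNX1+shRUNX3, 8.68 on shRUNX2+shRUNX3 and 7.23 on shRUNX1+shRUNX2+shRUNX3. The 3 arrays with a single RUNX shRNA lay between 8.50 and 8.73, around the control, and the 2 arrays with both RUNX1 and RUNX3 shRNAs lay 0.71 or more below every other array of the series. In the limma fit with a RUNX1 by RUNX3 term, those 2 arrays against the 2 with neither shRNA differed by -1.31 (SE 0.164, 95% interval -1.71 to -0.91, limma adjusted p = 0.0134). This is 40.3% of the level without them (95% interval 30.6% to 53.2%). The limma p-values are adjusted over all 12147 genes and pass under 0.05. CDKN3 was the 1 of 5 genes to pass, beside 8.16% of all genes tested (4.63% lower, 3.53% higher). At an unadjusted p under 0.05 CDKN1A and CDKN2D joined it, 3 of 5 beside 25.2% of all genes. The comparison was chosen with earlier results of these data known, so its p is not that of a contrast fixed in advance. It also leans on few arrays. Without shLuc the adjusted p was 0.117, without shRUNX2 0.0912 and without shRUNX1+shRUNX3 0.107, with differences of -1.36, -1.26 and -1.21. The array labelled shRUNX1, with the low RUNX3 reading, is in neither arm of this contrast and enters only its spread (adjusted p = 0.0137 without it).

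The same pattern appears in pairs of arrays that differ by 1 shRNA. Adding the RUNX1 shRNA changed the CDKN3 reading by 0.05 on the shLuc background, -0.46 on shRUNX2, -1.38 on shRUNX3 and -1.45 on shRUNX2+shRUNX3. Adding the RUNX3 shRNA changed it by 0.03 on shLuc, -1.40 on shRUNX1, 0.18 on shRUNX2 and -0.81 on shRUNX1+shRUNX2. By the labels, the reading was within 0.05 of shLuc with either shRNA alone and far below it only where they met. The exception was a smaller difference of -0.64 on shRUNX1+shRUNX2. The arrays labelled shRUNX1 (RUNX3 at 7.70) and shRUNX1+shRUNX2 (shared RUNX1 cluster at 4.26) enter these pairs and the interaction. Each of those readings lay inside the range of the arrays with the opposite label, so the pattern depends on the labels being right. The RUNX1 by RUNX3 interaction, the difference beyond the sum of both shRNA effects, was -1.21 (SE 0.232, unadjusted p = 0.00183, limma adjusted p = 0.249). It did not pass after adjustment, and no gene of the 12147 did (0%). At an unadjusted p under 0.05 the interaction counted 2 of 5 members, CDKN3 and CDKN2D, beside 12.7% of all genes.

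As an average over the other shRNAs, CDKN3 differed with the RUNX1 shRNA by -0.81 (SE 0.251, 95% interval -1.40 to -0.22, limma adjusted p = 0.139), or 57.0% of the level without it. It was 7.83 ± 0.701 (SD, n = 4 arrays) with and 8.64 ± 0.0991 (SD, n = 4 arrays) without, and the groups overlapped through shRUNX1. None of the 5 genes and none of all genes tested (0%) passed for that shRNA. At an unadjusted p under 0.05, CDKN3 was 1 of 5 members, beside 21.2% of all genes. Without the shRUNX1 array the difference was -1.07 (limma adjusted p = 0.0345), and in a fit with all pairwise interactions, which leaves 1 residual degree of freedom, the adjusted p was 0.0451. The average difference with the RUNX3 shRNA was -0.50 (SE 0.251, limma adjusted p = 0.579) and that with the RUNX2 shRNA was -0.26 (limma adjusted p = 0.976).

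CDKN2D, the INK4 inhibitor, had a like but smaller pattern that did not pass. It read 4.91 on shLuc, 5.02 on shRUNX1, 4.87 on shRUNX2, 4.94 on shRUNX3 and 4.71 on shRUNX1+shRUNX2. On shRUNX1+shRUNX3 it read 4.64, on shRUNX2+shRUNX3 4.82 and on shRUNX1+shRUNX2+shRUNX3 4.42. The 2 arrays with both RUNX1 and RUNX3 shRNAs were the lowest of the 8, at 4.64 and 4.42, with shRUNX1+shRUNX2 next. Both shRNAs together against neither gave -0.36 (SE 0.0897, unadjusted p = 0.00652, limma adjusted p = 0.0647), or 77.8% of the level. The interaction was -0.33 (SE 0.127, limma adjusted p = 0.374). Adding the RUNX1 shRNA changed CDKN2D by 0.11 on shLuc, -0.16 on shRUNX2, -0.30 on shRUNX3 and -0.40 on shRUNX2+shRUNX3. Across the 8 arrays its level followed that of CDKN3 with a Pearson r of 0.928, a description over arrays that share the same shRNAs.

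CDKN1A, the CIP/KIP inhibitor known as p21, did not pass a test across the knockdowns. Its level was 5.71 on shLuc, 5.77 on shRUNX1, 5.95 on shRUNX2, 5.80 on shRUNX3 and 5.93 on shRUNX1+shRUNX2. It was 5.54 on shRUNX1+shRUNX3, 5.67 on shRUNX2+shRUNX3 and 5.33 on shRUNX1+shRUNX2+shRUNX3. The 2 arrays with RUNX1 and RUNX3 shRNAs together were again the lowest, by 0.14 or more, while shRUNX2 and shRUNX1+shRUNX2 were the highest. Both shRNAs against neither gave -0.40 (SE 0.126, unadjusted p = 0.0195, limma adjusted p = 0.119), or 76.0% of the level. With the RUNX3 shRNA the average difference was -0.25 (SE 0.104, unadjusted p = 0.0440, limma adjusted p = 0.517). That made 1 of 5 members at an unadjusted p under 0.05, beside 9.39% of all genes, and no gene passed after adjustment (0%). With the RUNX2 shRNA the difference was 0.01, and -0.01 once each array was centred on its median, so no direction can be read from it.

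CDKN1B, the CIP/KIP inhibitor known as p27, held nearly 1 level on all knockdown arrays. It read 8.98 on shLuc, 9.02 on shRUNX1, 8.96 on shRUNX2 and 8.97 on shRUNX3. It read 8.94 on shRUNX2+shRUNX3, and 8.88 on the 3 arrays that combined the RUNX1 shRNA with 1 or both of the others. Both RUNX1 and RUNX3 shRNAs against neither gave -0.08 (95% interval 83.2% to 107% of the level, limma adjusted p = 0.540). An effect of the size seen for CDKN3 therefore lies outside the interval.

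CDKN1C, the CIP/KIP inhibitor known as p57, lay near the level filter of 3.80, which it reached on 10 of 11 arrays. It read 3.85 on shLuc, 4.01 on shRUNX1, 3.96 on shRUNX2 and 3.73 on shRUNX3. It read 3.87 on shRUNX1+shRUNX2, 4.01 on shRUNX1+shRUNX3, 4.06 on shRUNX2+shRUNX3 and 4.04 on shRUNX1+shRUNX2+shRUNX3. The values showed no order by shRNA, and both RUNX1 and RUNX3 shRNAs against neither gave 0.12 (95% interval 89.2% to 133% of the level, limma adjusted p = 0.577). It was the 1 member whose estimate was above 0 there. The median of the 5 members was -0.36, beside 0.02 over all genes tested.

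The RUNX2 shRNA left all 5 members without a call, as it did all genes tested (0%), and 0 of 5 members reached an unadjusted p under 0.05, beside 4.88% of all genes. CDKN2D and CDKN3 were lower in all 4 pairs of arrays that differed in this shRNA alone, a pattern that 6.34% of all genes shared. The changes ran from -0.31 to -0.04 for CDKN2D and from -0.70 to -0.04 for CDKN3. The fitted average for CDKN3 was 0.01 without the array labelled shRUNX1, so its size depends on that array. The CDKN3 pairs that do not use that array were still lower, at -0.18, -0.04 and -0.10. For no shRNA did the 4 arrays with it and the 4 without it separate completely in any of the 5 genes. Over all genes, 4.73% separated with lower and 5.15% with higher levels for the RUNX1 shRNA, 0.733% and 0.807% for RUNX2, and 1.58% and 1.61% for RUNX3. Against shLuc, single arrays differed by 2-fold or more only for CDKN3, on shRUNX1+shRUNX3 (-1.35, beside 1.98% of all genes) and on shRUNX1+shRUNX2+shRUNX3 (-1.45, beside 1.43%).

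**Figure D2:**
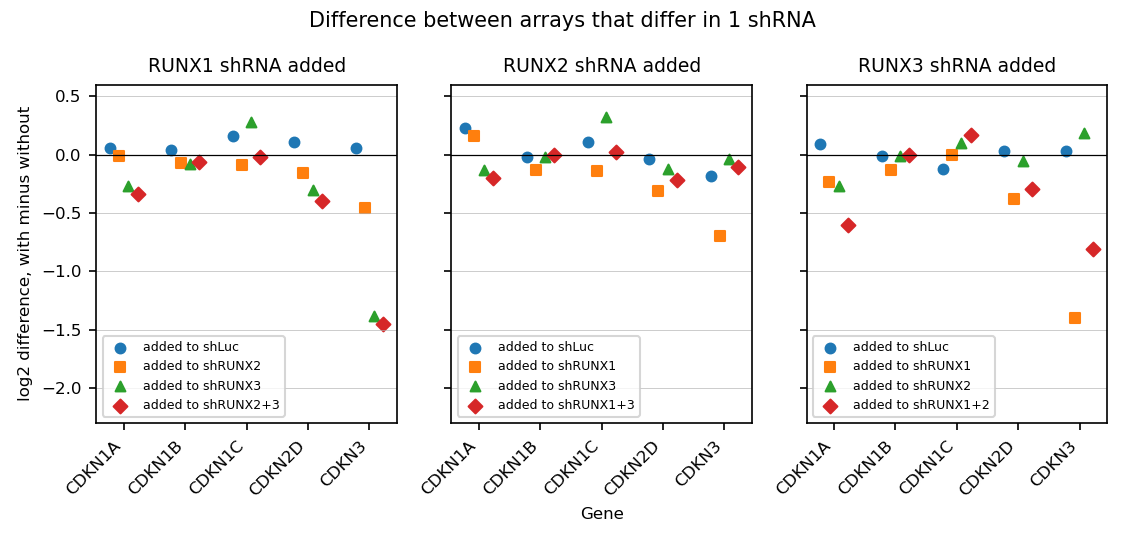
Difference in log2 level (y axis) between 2 arrays that differ in 1 shRNA, for each of the 5 genes (x axis), with a panel per added shRNA and a symbol per background. CDKN3 shows differences of -1.38 and -1.45 when the RUNX1 shRNA is added to arrays that carry the RUNX3 shRNA, and 0.05 when it is added to shLuc.

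Both compounds came with a higher CDKN1A level than DMSO after 6 hours. CDKN1A read 5.91 on DMSO, 7.36 with Chb-M' and 7.14 with Chb-50. The DMSO array lay inside the range of the 8 knockdown arrays, 5.33 to 5.95, and both compound arrays lay more than 1 log2 unit above all of those. CDKN1A rose 2.72-fold with Chb-M', a log2 difference of 1.44 (SE 0.209, 95% interval 0.95 to 1.93, limma adjusted p = 0.0470). The fold's 95% interval was 1.94 to 3.82. This p comes from a fit in which the single treatment arrays borrow their spread from the knockdown arrays, since they have none of their own. CDKN1A was the 1 of 5 members to pass, beside 0.609% of all genes tested (0.132% higher, 0.477% lower). The call is narrow, as the adjusted p was 0.0651 with no level filter and 0.0562 to 0.102 without any 1 of the 8 knockdown arrays. By the difference alone, CDKN1A was the 1 member past 2-fold with Chb-M', beside 0.873% of all genes, and it lay above 99.9% of the genes tested.

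With Chb-50, CDKN1A was 2.34-fold the DMSO level, a log2 difference of 1.23 (SE 0.209, 95% interval of the fold 1.67 to 3.29, unadjusted p = 0.000549, limma adjusted p = 0.189). No gene of all those tested passed for this compound (0%), and CDKN1A was again the 1 member past 2-fold, beside 0.296% of all genes. The 2 compounds were set against the same DMSO array, so an error in that array enters both differences. Against shLuc, DMSO read 0.20 higher for CDKN1A, which is well under the difference with either compound.

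CDKN2D lay below DMSO with both compounds, and neither difference passed. It read 5.06 on DMSO, the highest of all 11 arrays, 4.52 with Chb-M' and 4.61 with Chb-50. The differences were -0.54 (SE 0.175, unadjusted p = 0.0170, limma adjusted p = 0.237) and -0.46 (SE 0.175, unadjusted p = 0.0334, limma adjusted p = 0.494). These are 68.7% and 72.8% of the DMSO level, and both compound arrays also lay below shLuc at 4.91.

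CDKN3 read 8.67 on DMSO, 8.26 with Chb-M' and 8.23 with Chb-50. Both compound arrays lay below DMSO and shLuc but above the 3 arrays with the RUNX1 shRNA and at least 1 other RUNX shRNA. The differences from DMSO were -0.40 (95% interval -1.59 to 0.78, limma adjusted p = 0.794) and -0.44 (95% interval -1.62 to 0.74, limma adjusted p = 0.891). The wide intervals include both 0 and a difference as large as that with RUNX1 and RUNX3 shRNAs together. When the spread came from the fit with the RUNX1 by RUNX3 term, the interval for Chb-M' was -0.97 to 0.16 (limma adjusted p = 0.453) and that for Chb-50 -1.003 to 0.126. Both then included 0 and left out -1.31, but they overlapped the 95% interval of that joint estimate, -1.71 to -0.91.

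CDKN1C was highest of all 11 arrays with Chb-50, and neither CDKN1C nor CDKN1B passed with either compound. CDKN1C read 4.16 on DMSO, 4.22 with Chb-M' and 4.69 with Chb-50. With Chb-50 the difference was 0.52 (SE 0.164, unadjusted p = 0.0145, limma adjusted p = 0.405), or 1.44-fold, and with Chb-M' it was 0.06 (limma adjusted p = 0.934). CDKN1B read 8.66 on DMSO, 8.80 with Chb-M' and 8.70 with Chb-50, all below the lowest knockdown array at 8.88. Its differences from DMSO were 0.15 and 0.04 (limma adjusted p = 0.619 and 0.980), while DMSO itself lay -0.32 from shLuc. Handling, doxycycline and time differ between the control arrays, and their parts in that gap cannot be told apart. At an unadjusted p under 0.05 there were 2 of 5 members with Chb-M', beside 13.9% of all genes, and 3 of 5 with Chb-50, beside 9.17%.

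Chb-M' and Chb-50 were compared directly as 1 pair, at the same dose and time. For CDKN1A, Chb-M' minus Chb-50 was 0.22 (95% interval -0.28 to 0.71, limma adjusted p = 0.954), so a difference of up to 1.63-fold in favour of Chb-M' lies inside the interval. For CDKN1B it was 0.10 (95% interval -0.15 to 0.36, limma adjusted p = 0.961) and for CDKN2D -0.08 (95% interval -0.49 to 0.33, limma adjusted p = 0.996). For CDKN3 it was 0.03 (95% interval -1.15 to 1.22). When the spread came from the fit with the RUNX1 by RUNX3 term, that CDKN3 interval was -0.53 to 0.60. CDKN1C was the 1 member whose interval left out 0, at -0.47 (95% interval -0.85 to -0.08, unadjusted p = 0.0241, limma adjusted p = 0.608). It did not pass after adjustment, nor did any gene tested (0%), and 1 of 5 members at an unadjusted p under 0.05 stands beside 7.15% of all genes.

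**Figure D3:**
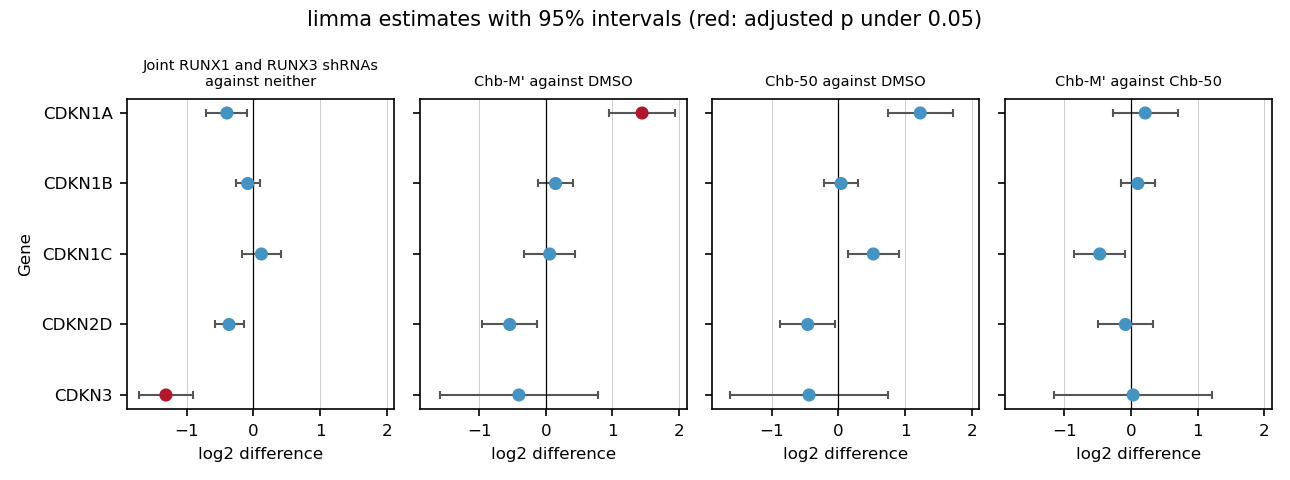
limma estimates of log2 differences (x axis) for the 5 genes (y axis) in 4 comparisons, as points with 95% intervals, in red where the adjusted p was under 0.05. CDKN3 is red at -1.31 for both RUNX1 and RUNX3 shRNAs against neither, and CDKN1A is red at 1.44 for Chb-M' against DMSO.

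The kinases and cyclins on which these inhibitors act fell in part with the RUNX1 and RUNX3 shRNAs together. Of 16 genes on a list of cyclins and cyclin-dependent kinases, all tested, 8 were lower and 1 higher in limma at an adjusted p under 0.05, beside 4.63% of all genes lower and 3.53% higher. The list's median was -0.45 beside 0.02 over all genes. CCNE2 and CCNE1, the cyclin E genes that partner CDK2, fell by 1.46 and 1.21 (limma adjusted p = 0.0104 and 0.0101). CDK2 itself changed by -0.74, CDK1 by -1.03, and CCND3, a D-type cyclin, by -0.75. CCNA2, CCNB1 and CCNB2 were also lower. CDK6, a target of the INK4 proteins, was the 1 gene called higher, by 0.46 (limma adjusted p = 0.0212). CDK4 had a difference of -0.16 (limma adjusted p = 0.215). Leaving out 1 knockdown array gave 0 to 9 called genes on this list, with 0 without shLuc, shRUNX2 or shRUNX1+shRUNX3. Without shLuc or shRUNX1+shRUNX3 no gene of all those tested passed in this contrast, so the calls that other lists had in it are lost there too.

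Downstream of the kinases, 12 of 13 genes for pocket proteins, E2F and DP factors were tested, and 5 were lower and 0 higher with both shRNAs (median -0.32), beside 4.63% of all genes lower. They were E2F8 (-1.64), E2F1 (-1.36), E2F7 (-1.32), TFDP1 (-1.09) and E2F2 (-0.91), which belong to the factors that switch S-phase genes on or, for E2F7 and E2F8, off again. RB1, the pocket protein that the kinases phosphorylate, had a difference of -0.02 (limma adjusted p = 0.925). Of 15 genes for the ligases that mark CIP/KIP proteins for breakdown, 13 were tested, and 3 were lower and 0 higher (median 0.05), beside the same 4.63% lower. They were DTL, the substrate receptor that takes p21 to its ligase, at -1.20, SKP2, the receptor for p27, at -0.97, and PCNA, the platform for the DTL route, at -0.60.

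Most genes of a list for G2 and mitosis, when CDK1 is at work, fell as well. Of 30 genes, 28 were tested, 22 were lower at an adjusted p under 0.05 in limma beside 4.63% of all genes, and all 28 had estimates below 0 (median -0.83 beside 0.02 over all genes). KIF20A, a mitotic kinesin, changed by -1.12 and TOP2A, the topoisomerase of dividing cells, by -1.08. Without 1 knockdown array the number called ranged from 0, without shLuc, shRUNX2 or shRUNX1+shRUNX3, to 25. Of 14 genes linked to FOXO and SMAD control of the inhibitors, all tested, 2 were lower and 1 higher (median -0.04), beside 8.16% of all genes called. FOXM1, a transcription factor of G2 and mitosis genes, changed by -1.41. The SMAD genes called went both ways, SMAD4 by -0.37 (limma adjusted p = 0.0333) and SMAD3 by 0.40 (limma adjusted p = 0.0450). How far the share of cycling cells entered any of these differences was not tested.

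Of the p53 targets other than CDKN1A, 3 passed with RUNX1 and RUNX3 shRNAs together, 3 with Chb-M' and 0 with Chb-50. With RUNX1 and RUNX3 shRNAs together, 26 of 29 genes were tested, 2 were lower (TRIAP1 at -0.89 and POLH at -0.35) and 1 higher (TNFRSF10B, a death receptor, at 0.42), beside 8.16% of all genes, with a median of -0.13. Without 1 knockdown array, 0 to 4 of the list passed. With Chb-M', 25 of the 26 had estimates above 0, and the median was 0.55 beside 0.02 over all genes. In limma 3 passed, all higher, beside 0.609% of all genes (0.132% higher). GADD45A, a DNA-damage response gene, rose by 0.95 (limma adjusted p = 0.0447), XPC, a nucleotide excision repair gene, by 0.92 (0.0426) and TNFRSF10B by 0.84 (0.0486). At an unadjusted p under 0.05, 19 were higher and 1 lower, beside 13.9% of all genes. The 2 highest estimates were those of SESN2 (1.40) and PLK2 (1.37), with limma adjusted p = 0.0871 and 0.0791, and the lowest was SUSD6 (-0.42). Without the shRUNX1 array 2 of the list passed, and without any other 1 knockdown array 0 did. With Chb-50, 25 of the 26 again had estimates above 0 against the same DMSO array (median 0.38), 0 passed, and 14 were higher and 1 lower at an unadjusted p under 0.05, beside 9.17% of all genes. CDKN1A was thus above the highest gene of the list with Chb-M', and level with TP53INP1 (1.23) with Chb-50.

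For the remaining lists, no gene passed with either compound. This fit has no RUNX1 by RUNX3 term, so a combined effect of those shRNAs can widen the spread of such genes. For CCNE2 the SE was 0.489 with either compound, and 0.222 for the interaction in the fit with that term. Calls for these lists with that term are not given, so the lack of calls says little about the compounds. With Chb-M' the 28 mitosis genes all had estimates below 0 (median -0.56), lowest for CENPE, a mitotic kinesin, at -1.77 (limma adjusted p = 0.0842). With Chb-50 all 28 were below 0 too (median -0.38). The cyclin and kinase list had a median of -0.31 with Chb-M' and -0.13 with Chb-50. Its lowest estimates were those of CCNB1, the mitotic cyclin B, at -0.91 and -0.85, and of MNAT1, a partner of CDK7, at -0.85 and -0.65. Its highest were CCNE2, at 1.02 and 0.72, and CCNE1, at 0.80 and 0.51. The cyclin E genes thus had estimates above 0 with the compounds and below 0 with the RUNX1 and RUNX3 shRNAs together. That contrast between experiments was not tested, and time, doxycycline and transduction differ between them. The medians of the E2F, turnover and FOXO/SMAD lists lay between 0.00 and 0.09 with both compounds.

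**Figure D4:**
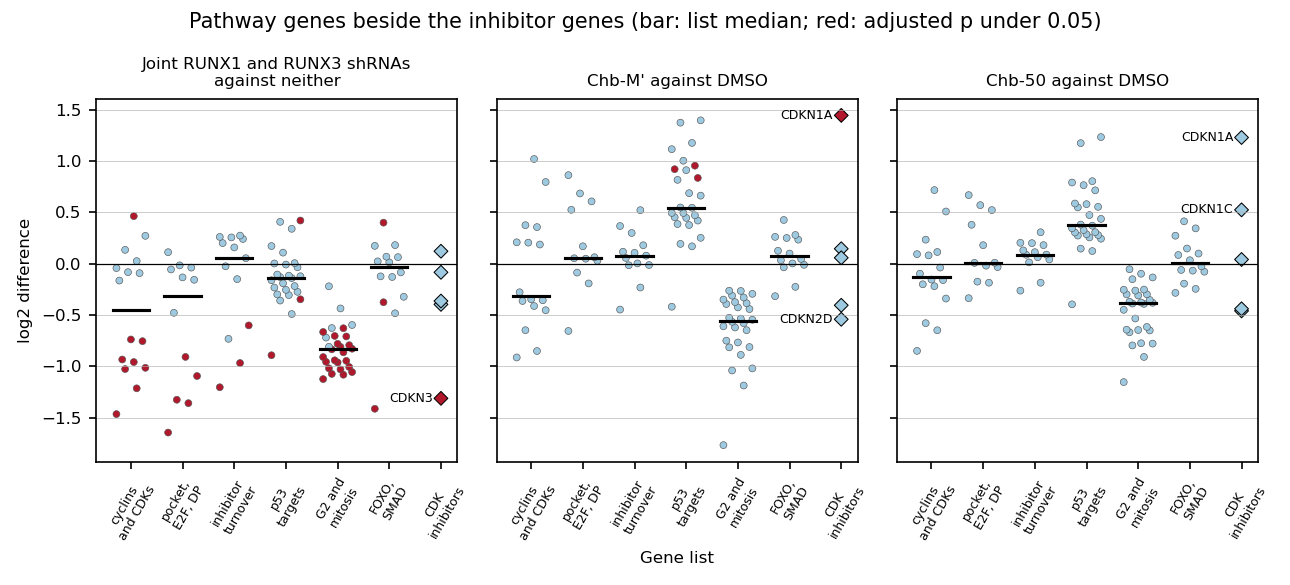
log2 differences (y axis) of the tested genes of 6 pathway lists and of the 5 inhibitor genes (x axis; diamonds), in 3 comparisons, with a bar at each list's median and red where the limma adjusted p was under 0.05. The mitosis list lies at a median of -0.83 with RUNX1 and RUNX3 shRNAs together, and the p53 target list at 0.55 with Chb-M' and 0.38 with Chb-50.

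The genes whose levels ran most like each member over the 11 arrays were sought among 11139 tested genes, by Pearson correlation and without a test, since the arrays share their conditions. CDKN3 ran with TACC3 (r = 0.976), TOP2A (0.974) and INCENP (0.974), all genes of mitotic chromosomes or spindles, and over the 8 knockdown arrays r was 0.988, 0.982 and 0.978. TACC3 read 7.74 on shLuc, 7.11 on shRUNX1+shRUNX3 and 7.13 on shRUNX1+shRUNX2+shRUNX3, the same 2 arrays on which CDKN3 was lowest. CDKN2D ran with H2BC3, a histone gene (r = 0.942), KIF14, a mitotic kinesin (0.937), and BUB1, a spindle checkpoint kinase (0.929). CDKN1A ran with PPM1D, a phosphatase that is itself a p53 target (r = 0.975), ZNF79 (0.972) and LUC7L (0.958). Over the knockdown arrays alone these fell to 0.721, 0.776 and 0.363, so the likeness over 11 arrays leans on the 2 compound arrays. PPM1D read 7.35 on DMSO, 7.78 with Chb-M' and 7.63 with Chb-50. CDKN1B ran with IARS1 (0.974), ATXN2L (0.963) and LSM3 (0.950), which like it were lower on the 3 treatment arrays than on any knockdown array. CDKN1C ran with ANTKMT (0.963), FAM90A10 (0.916) and C1QL1 (0.916). Among the members themselves, CDKN2D and CDKN3 had the highest r over 11 arrays, 0.804. CDKN1A and CDKN3 had an r of 0.681 over the knockdown arrays and 0.171 over all 11, as the compound arrays were high for CDKN1A and below DMSO for CDKN3.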

How the data were processed

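RNA of 11 MV4-11 samples was measured on Affymetrix arrays, 1 per condition. Per transcript cluster, the deposited table gives a log2 level. Per the submitters' processing notes, RMA, Transcriptome Analysis Console 1.0 and Affymetrix Expression Console 1.3.1 were in use (role and order not stated). The scale was read from the values (0.485 to 12.74, array medians 5.86 to 5.91). The sources used here do not give the annotation's genome build. Detection values were not used, so signal over background is unknown.

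Of 53617 clusters, 23558 had 1 symbol, 2155 several and 27904 none listed. Entrez identifiers of 22271 were found in RefSeq, and 3 symbols were updated. The cluster of highest mean level stood for a gene. A gene was tested if its highest level was at or above the median 1-symbol value (3.80). R 4.3.3 with limma 3.58.1 fitted the effects across all genes tested, with eBayes and Benjamini-Hochberg adjustment at 0.05. The 3 shRNAs were additive terms on 8 arrays (4 residual degrees of freedom), or had a RUNX1 by RUNX3 term (3). All 11 arrays entered the compound fit, in which treatment arrays are assumed to vary like knockdown arrays. The fits were also run on simulated data with the same spread per gene on all arrays and no shRNA interaction, which cannot test that assumption.

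Named were the members, the 2 highest and 2 lowest genes of a list in a comparison described for it, and the 3 genes most like each member, leaving out uncharacterised loci, antisense genes, small RNAs and olfactory receptors. Called genes of short lists, and genes named beside them, were chosen after their values were seen. The members, lists, the interaction and the joint contrast were chosen with earlier results of these data known. Alternatives were other level filters, the mean over clusters, quantile normalization, array centring, an eBayes trend, other model terms, a 1.5-fold threshold and leaving out each knockdown array.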

Additional observations from a re-analysis of the deposited data

How the results depend on the processing

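Over the 5 genes and 8 model comparisons, 614 values were recomputed under alternatives, and 591 kept their direction and their side of the adjusted p of 0.05, 9 changed sign, 2 newly passed and 12 no longer passed. The tally does not measure how firm a call is, since many of these values could hardly move. Level filters and an eBayes trend leave an estimate as it is, and so does leaving out a knockdown array for a compound difference. Only CDKN1A with Chb-M' and CDKN3 with RUNX1 and RUNX3 shRNAs together had passed before, so all 12 losses were theirs. CDKN1A lost its call in 8 of 8 fits without 1 knockdown array, and CDKN3 in 3 of 8. The number of members called for the RUNX1 shRNA rose from 0 to 1 with all pairwise interactions (CDKN3, adjusted p = 0.0451), and ranged from 0 to 1 without single arrays (1 without shRUNX1). For RUNX1 and RUNX3 shRNAs together it ranged from 0 to 1 without single arrays. For Chb-M' it was 0 with no level filter and 0 without any 1 knockdown array, against 1 otherwise. Estimates that changed sign were small in the main fit, except CDKN3 with the RUNX2 shRNA, which was -0.255 there. CDKN1A with the RUNX2 shRNA was -0.00535 with centred arrays, and ranged from -0.0804 (without shLuc) to 0.110 without single arrays. Without single arrays, CDKN3 with the RUNX2 shRNA ranged from -0.462 to 0.00686 (without shRUNX1). CDKN1C with the RUNX3 shRNA ranged from -0.0305 (without shRUNX1+shRUNX2) to 0.110, and its interaction from -0.0706 (without shRUNX3) to 0.259. The CDKN1B interaction ranged from -0.117 to 0.00405 (without shRUNX1). The count of all genes called moved more. For RUNX1 and RUNX3 shRNAs together it was 991, and 484 with no level filter, 1520 with an eBayes trend and 0 to 1132 without single arrays. For Chb-M' it was 74, and 7 with no level filter, 132 with the stricter one and 49 with the mean over clusters. Without single arrays it was 77 (without shRUNX1), 5 (without shRUNX1+shRUNX3) and 0 (without any other). For the RUNX1 shRNA it was 0, and 79 with the stricter filter, 68 with an eBayes trend, 391 with all pairwise interactions and 0 to 817 without single arrays. For the RUNX3 shRNA it was 0 to 1 without single arrays, and for Chb-M' against Chb-50 it was 1 with the mean level filter. The level filter and the arrays left out change how many genes or arrays enter a fit, and beyond that the cause was not tested.

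No paired analysis was possible because every condition has 1 array, numbered 1. The number of arrays limits the precision, signal over background is unknown, and CDKN1C lies near the level filter. CDKN2D was low too, at 4.42 to 5.06. The stricter filter, on the mean level and 1 log2 unit higher, left out both genes.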

Other observations

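Some readings of different arrays were identical to every deposited digit. CDKN1B had 1 value, 8.88, on shRUNX1+shRUNX2, shRUNX1+shRUNX3 and shRUNX1+shRUNX2+shRUNX3, and CDKN1C had 1 value, 4.01, on shRUNX1 and shRUNX1+shRUNX3. Of the 12147 genes tested, 37.7% had the same value on at least 2 arrays, 17.8% on at least 3 and 7.03% on at least 4. CDKN1A, CDKN2D and CDKN3 had a different value on each of the 11 arrays. Over the 8 knockdown arrays CDKN1B had 6 distinct values.

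In the 2 promoter windows not printed above, CDKN1B held CCAAT 2 times and GGGCGG 1 time, and CDKN2D held CCAAT 1 time and GGGCGG 2 times. Neither held TTTGAA. The CDKN3 window was the 1 of 4 with that motif and the 1 of 4 without GGGCGG. CDKN1C had no promoter entry, and a link between motifs and levels was not tested.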
